A study of Felis catus with 36 samples.

Results

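The 100 genes described here had a higher group mean of messenger RNA at 4 months than at 1 month in both left ventricle (LV) and skeletal muscle (SKM) of cats. This held in banded as well as in sham-operated animals. With group medians it held for 94 of the 100 in banded SKM and for all 100 in banded LV, sham LV and sham SKM. The genes were chosen from the counts of 36 libraries by a fixed rule. Counts were scaled to counts per 1000000 gene counts (CPM), group means were put on a log2(CPM + 0.5) scale, and genes with a mean of at least 5 CPM in each tissue were kept, which left 8072 of 26681 genes. For each of these genes the difference of 4 months minus 1 month was taken in banded LV, sham LV, banded SKM and sham SKM. The 100 genes whose smallest of these 4 differences was highest are the members, and a member's rank, 1 to 100, is its place in that order. The differences between times therefore chose the members and are given as a description, with no test.

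The study follows the LV and SKM of the cat (Felis catus) after aortic banding, which models a heart failure with a preserved ejection fraction. A band narrows the aorta and the left ventricle pumps against a raised load. The groups in each tissue are banded animals at 4 months, banded animals at 1 month, sham-operated animals at 4 months and sham-operated animals at 1 month, with 5, 5, 5 and 3 libraries. All animals had an operation, with or without the band, and the labels name no strain, sex, age, muscle or sequencing date. Time since the operation, the animals' growth and any batch that goes with time cannot be told apart here. The labels also do not say that libraries of a group came from separate animals, so p-values measure the spread between these libraries.

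Left ventricle and limb or trunk muscle are both striated muscle, built of sarcomeres and rich in mitochondria, and both also hold vessels, fibroblasts, immune cells and nerve. In young mammals both tissues grow and mature after birth, with changes in contractile protein isoforms, in energy metabolism, in matrix and in resident immune cells. The published feline model places the band in young animals that then grow, so months after banding are also months of growth. In pieces of whole tissue, a change in the number of cells of a type and a change in RNA per cell cannot be told apart.

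The files name genes by Ensembl identifiers, and the reference table of 39307 cat genes paired 0 of these 26681 with a symbol. The roles of the members are therefore not given, the tissue labels could not be checked against muscle or heart markers, and no pathway or cell type list could be counted. A total of 4 members are printed by identifier and others are referred to by rank. The LV libraries held between 14.6 M and 22.3 M gene counts, and the SKM libraries between 21.5 M and 34.9 M. No 2 libraries of a group were identical. Some libraries stood apart from their groups for subsets of the members, and their values are given with the results they touch. They include libraries 1 and 2 of banded SKM at 4 months, library 3 of banded LV at 1 month and library 2 of sham LV at 1 month. Library 5 of sham SKM at 4 months was lowest in its group for 47 members. At 1 month in SKM, library 1 was highest in its group for 52 members in sham and 35 in banded animals. Those libraries had 43.7% and 40.9% of counts not assigned to a gene, against at most 29.7% and 29.0% in the rest of their groups.

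The members ranged widely in size of difference. The smallest of the 4 differences was 3.51 on the log2 scale for the member ranked 1 and 0.52 for the member ranked 100. It exceeded 1, a 2-fold difference in all 4 settings, in the first 28 members, and exceeded 2 in 10. The member ranked 100 had differences of 1.39 in banded LV, 0.52 in sham LV, 0.79 in banded SKM and 1.86 in sham SKM. The first gene outside the list, ranked 101, had 1.09, 1.74, 0.52 and 1.32 in the same order, so the end of the list is not a gap. All 4 differences lay above 0 in 1067 of the 8072 genes, or 13.2%.

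The members were spread over a wide range of abundance. Their mean over all 36 libraries ran from 6.44 to 3210 CPM with a median of 51.8 CPM, against a median of 30.0 CPM for all 8072 genes. Together the members made up 2.02 ± 0.323% of gene counts in banded LV at 4 months and 0.671 ± 0.0515% at 1 month (SD, n = 5 each). In sham LV they made up 2.13 ± 0.405% at 4 months (SD, n = 5) and 0.703 ± 0.169% at 1 month (SD, n = 3). In banded SKM the share was 1.57 ± 0.0881% at 4 months and 0.897 ± 0.0547% at 1 month (SD, n = 5 each), and in sham SKM it was 1.72 ± 0.106% at 4 months (SD, n = 5) and 0.913 ± 0.185% at 1 month (SD, n = 3).

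The differences were larger in heart than in muscle and larger in sham than in banded animals for most members. The median difference over the 100 members was 1.34 in banded LV, 1.56 in sham LV, 0.87 in banded SKM and 1.15 in sham SKM, on the log2 scale. The same medians over all 8072 genes were -0.17, -0.13, -0.03 and -0.003. The difference was larger in LV than in SKM in 68 members among banded animals and in 65 among sham animals. It was larger in sham than in banded animals in 74 members in LV and in 69 in SKM. The smallest of the 4 differences lay in banded SKM for 47 members, in banded LV for 26, in sham SKM for 21 and in sham LV for 6. Scaling by trimmed means (TMM) in place of library totals moved the medians of all genes to 0.09, 0.01, 0.17 and 0.11, a shift of over 0.1 in each, and the members' medians to 1.58, 1.71, 1.05 and 1.302. All members stayed above 0 in all 4 differences under that scaling, with 0.66 as the lowest.

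**Figure D1:**
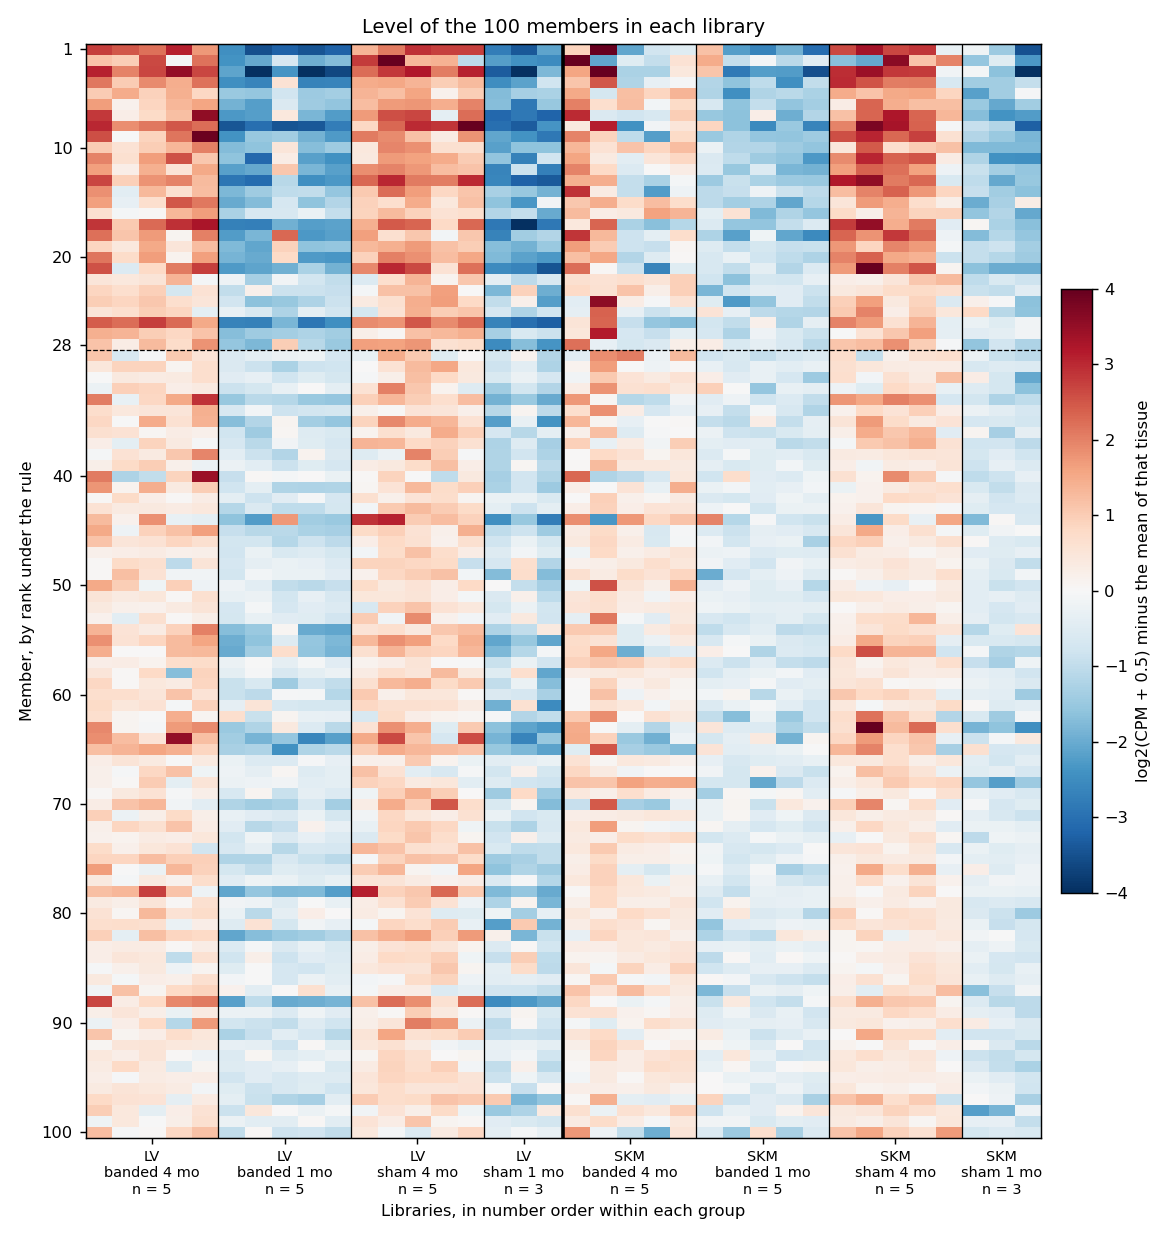
Level of each of the 100 members (vertical, by rank) in each of the 36 libraries (horizontal, by group), as log2(CPM + 0.5) minus the member's mean over the 18 libraries of that tissue, with red above and blue below that mean. The dashed line marks the first 28 members, whose 4 differences all exceed 1, and in banded SKM at 4 months their red cells lie mostly in libraries 1 and 2.

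ENSFCAG00000040871, the member ranked 1, was close to absent from LV at 1 month and present at 4 months. In banded LV it had 54.6, 44.5, 36.6, 68.998 and 26.4 CPM at 4 months, against 0.969, 0.213, 0.356, 0.242 and 0.367 CPM at 1 month. In sham LV it had 20.4, 33.9, 60.2, 53.6 and 53.3 CPM at 4 months, against 0.694, 0.263 and 1.38 CPM at 1 month. All 10 LV libraries of 4 months lay above all 8 of 1 month, and the log2 differences of the group means were 5.65 in banded and 5.13 in sham LV. In sham SKM it had 50.2, 81.4, 51.3, 58.5 and 6.12 CPM at 4 months, against 6.64, 2.44 and 0.220 CPM at 1 month. Library 5 of 4 months lay just below library 1 of 1 month there. In banded SKM it had 14.7, 249, 1.43, 4.29 and 5.34 CPM at 4 months, against 17.7, 1.26, 0.800, 1.64 and 0.491 CPM at 1 month. Library 2 of 4 months held 90.6% of the summed CPM of its group, and the other 4 libraries lay within the range of the 1-month libraries. The group medians in banded SKM were 5.34 CPM at 4 months and 1.26 CPM at 1 month, while the group means were 55.0 and 4.37 CPM.

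The member ranked 5 had a difference of much the same size in all 4 settings and is the first in rank with no overlap in any of them. In banded LV it had 73.8, 103, 69.3, 98.9 and 64.5 CPM at 4 months, against 12.8, 12.02, 21.4, 13.1 and 13.9 CPM at 1 month. In sham LV it had 93.5, 84.4, 110.0, 40.7 and 72.9 CPM at 4 months, against 10.5, 14.2 and 14.8 CPM at 1 month. The lowest 4-month library of LV thus stood above the highest 1-month library in each treatment. In banded SKM it had 483, 104, 385, 304 and 429 CPM at 4 months, against 72.5, 30.2, 73.5, 79.6 and 69.8 CPM at 1 month. In sham SKM it had 470.0, 372, 481, 508 and 304 CPM at 4 months, against 37.1, 63.5 and 162 CPM at 1 month. The times did not overlap here either, with library 2 the low one in banded SKM at 4 months and library 3 the high one in sham SKM at 1 month. The log2 differences were 2.44 in banded LV, 2.56 in sham LV, 2.38 in banded SKM and 2.28 in sham SKM.

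ENSFCAG00000011830, ranked 90, had the highest mean level of the members and smaller differences. In banded LV it had 1462, 2072, 2988, 776 and 5510.2 CPM at 4 months, against 1038, 939, 864, 1201 and 984 CPM at 1 month. In sham LV it had 2001, 2387, 7055, 5619.6 and 1464 CPM at 4 months, against 827, 1781 and 984 CPM at 1 month. The times overlapped in both LV treatments, through library 4 of banded LV at 4 months and library 2 of sham LV at 1 month. In banded SKM it had 3770.1, 2856, 4466, 6555 and 5719.9 CPM at 4 months, against 2902, 3047, 3124, 3216 and 2569 CPM at 1 month. In sham SKM it had 5228, 5529, 4553, 4762 and 6432 CPM at 4 months, against 4996, 3171 and 2702 CPM at 1 month. The times overlapped here too, with log2 differences of 1.35 in banded LV, 1.63 in sham LV, 0.65 in banded SKM and 0.55 in sham SKM.

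ENSFCAG00000043861, ranked 78, was near 0 in LV at 1 month and well over 100 CPM in SKM at both times. In banded LV it had 7.18, 7.89, 21.9, 6.80 and 2.42 CPM at 4 months, against 0.285, 0.638, 0.457, 0.484 and 0.229 CPM at 1 month. In sham LV it had 28.1, 5.86, 6.56, 15.9 and 6.35 CPM at 4 months, against 0.481, 0.630 and 0.332 CPM at 1 month. No LV library of 1 month reached 1 CPM and no LV library of 4 months fell below 2 CPM. In banded SKM it had 351, 594, 455, 440.2 and 396 CPM at 4 months, against 240.4, 176, 279, 267 and 277 CPM at 1 month. In sham SKM it had 395, 340.3, 443, 630.0 and 349 CPM at 4 months, against 284, 284 and 282 CPM at 1 month. The times did not overlap in either SKM treatment, and the log2 differences were 3.40 in banded LV, 3.73 in sham LV, 0.85 in banded SKM and 0.61 in sham SKM.

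**Figure D2:**
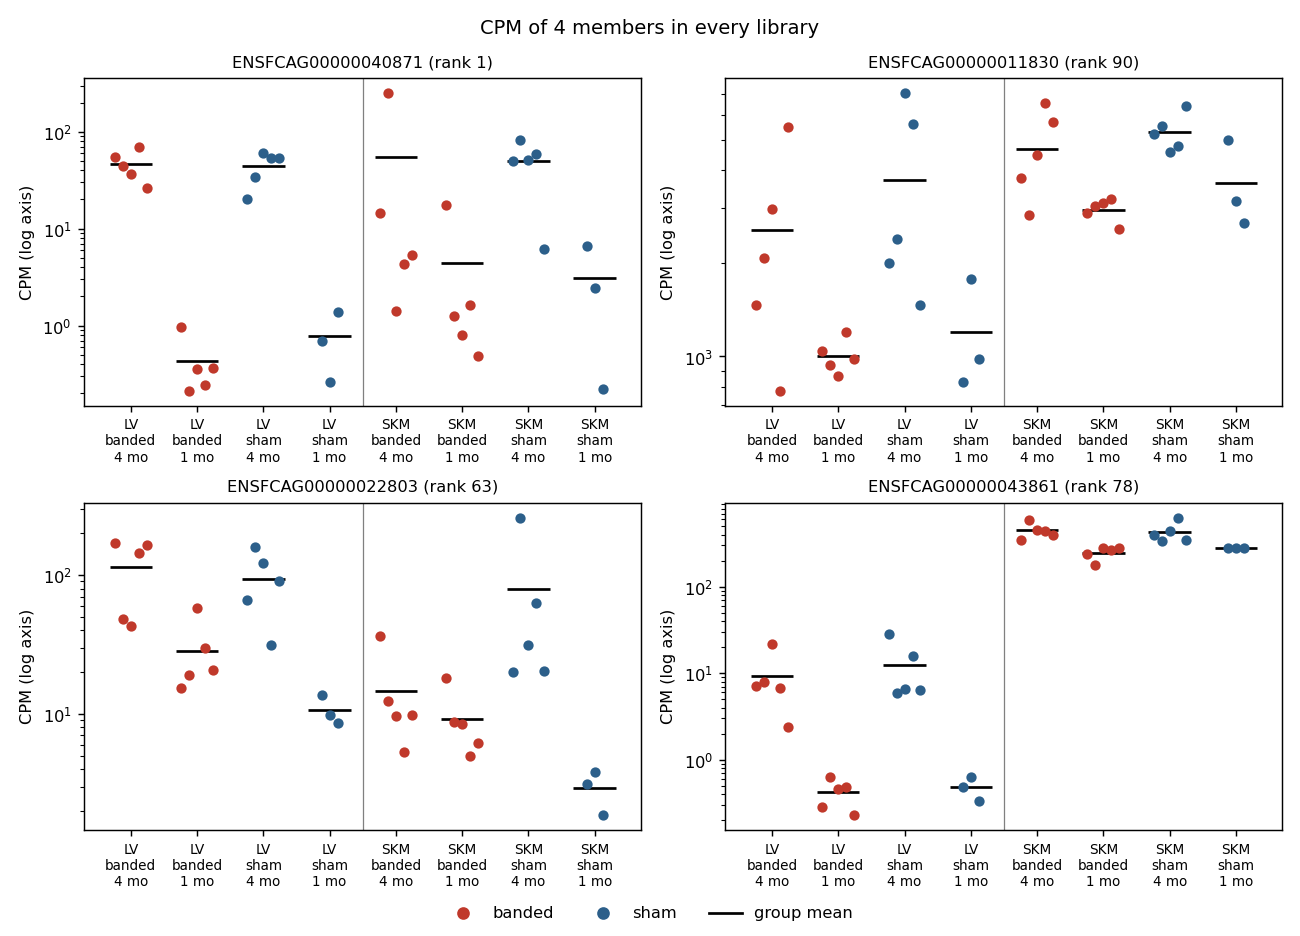
CPM on a log axis (vertical) of the 4 members printed by identifier in every library (points), by tissue, treatment and time (horizontal), with black lines at the group means. For ENSFCAG00000040871 in banded SKM at 4 months, library 2 stands at 249 CPM and the other 4 libraries between 1.43 and 14.7 CPM.

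A small part of the list was near-absent at 1 month. In all 8 LV libraries of 1 month, 5 members stayed under 2 CPM, those ranked 1, 2, 8, 64 and 78, and in all 8 SKM libraries of 1 month 1 member did, ranked 13. The difference exceeded 3 on the log2 scale, 8-fold, in both LV treatments for 13 members, and in both SKM treatments for those ranked 1 and 2 only. In banded SKM both of these rest on 1 library of 4 months. The difference of the member ranked 1 was 3.51, and 0.51 without library 2, and that of the member ranked 2 was 3.02, and -0.57 without library 1. For comparison, the difference exceeded 1 in 58 members in banded LV, 74 in sham LV, 40 in banded SKM and 64 in sham SKM.

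The separation of single libraries was less even than the means. All 4-month libraries lay above all 1-month libraries for 59 members in banded LV, where 3.79% of the 8072 genes did so, and for 68 in sham LV, where 5.57% did. In SKM this held for 43 members in banded animals, against 7.54% of genes, and for 69 in sham animals, against 14.2% of genes. It held in all 4 settings for 15 members, against 0.235% of genes, in 3 settings for 29, in 2 for 39, in 1 for 14 and in none for 3. The 15 members without overlap in any setting were not confined to those with the largest differences. They include 4 of the first 28, ranked 5, 6, 10 and 11, and the smallest difference of the 15 ran from 0.52 to 2.28. Because the rule used these same libraries, nothing is read from these shares.

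In banded SKM at 4 months, a single library carried much of the group mean for many members. One library held over 50% of the group's summed CPM in 22 members, where an even share of 5 libraries is 20%. It was library 1 for 9 of them, those ranked 2, 7, 14, 18, 21, 28, 33, 40 and 100. It was library 2 for 13, those ranked 1, 3, 4, 8, 17, 24, 25, 26, 27, 50, 53, 65 and 70. Over all 8072 genes, library 1 held over 50% for 0.619% and library 2 for 0.396%. The other groups of 5 libraries had 3 such members in banded LV at 4 months, 12 in banded LV at 1 month, 1 in sham LV at 4 months, 6 in banded SKM at 1 month and 3 in sham SKM at 4 months. No library of those groups held over 50% for more than 0.508% of all genes. In banded LV at 1 month all 12 had library 3 as the high one, where 0.235% of all genes did. Among the 9 members high in library 1 of banded SKM at 4 months are 4 of these 12. These subsets were formed from the values themselves, so no test is given for them. The rule used group means, which 1 high library of 4 months raises, so genes can enter the list through such a library. Nothing is therefore read from these counts beside the shares of all genes.

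The 9 members high in library 1 and the 13 high in library 2 are different genes by definition. Lower values of each subset in the other libraries, on average, also follow from how it was formed. In library 1 of banded SKM at 4 months, the median of the 9 members lay 2.34 above their group mean on the log2 scale, and that of the 13 members 0.10 above. In library 2 the 13 members lay 2.76 above and the 9 members 0.03 below. In libraries 3 and 4 both subsets lay 0.98 to 1.12 below, and in library 5 the 9 members lay 0.08 above and the 13 members 0.46 below. Among the 71 members in none of the 3 subsets, the medians of these 5 libraries ran from -0.16 to 0.38.

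The member ranked 3 is an example of the subset high in library 2. In banded SKM it had 182, 1006, 25.1, 25.2 and 82.0 CPM at 4 months, against 133, 8.12, 12.9, 12.5 and 4.88 CPM at 1 month. In sham SKM it had 479, 659.6, 434, 424 and 55.3 CPM at 4 months, against 57.7, 19.1 and 3.42 CPM at 1 month. Library 2 of banded SKM at 4 months stood highest and libraries 3, 4 and 5 lay within the 1-month range, and in sham SKM library 5 of 4 months lay below library 1 of 1 month. In banded LV the same gene had 1474, 701, 1113, 2021 and 1113 CPM at 4 months, against 40.5, 5.05, 34.1, 8.10 and 13.5 CPM at 1 month. There the 5 libraries of 4 months stood far above all 5 of 1 month.

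For the member ranked 65 the mean and the other libraries went opposite ways in banded SKM. It had 14.4, 117, 7.69, 6.83 and 5.67 CPM at 4 months, against 29.5, 15.0, 15.8, 16.6 and 19.8 CPM at 1 month. Library 2 stood above all 1-month libraries and the other 4 libraries lay below all of them. The log2 difference of the means was 0.63, and that of the medians was -1.07. In banded LV it had 547, 618, 718, 641 and 435 CPM at 4 months, against 96.0, 102, 44.4, 104 and 112 CPM at 1 month, with no overlap.

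The member ranked 18 is an example of the subset high in library 1. In banded SKM it had 145, 49.4, 10.8, 14.9 and 32.7 CPM at 4 months, against 8.12, 3.95, 17.4, 4.29 and 2.95 CPM at 1 month. Library 1 of 4 months was the high one and libraries 3 and 4 lay within the 1-month range. In banded LV it had 493, 231, 348, 113 and 429 CPM at 4 months, against 22.1, 29.8, 518, 21.3 and 23.0 CPM at 1 month. Library 3 of banded LV at 1 month was higher than every 4-month library, and the remaining 4 libraries of that group were all lower than every 4-month library. In sham SKM it had 102, 70.1, 143, 97.9 and 16.9 CPM at 4 months, against 5.62, 8.63 and 6.39 CPM at 1 month, without overlap.

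With group medians in place of group means, all 100 members had a difference above 0 in banded LV, sham LV and sham SKM, and 94 did in banded SKM. Of the 100, 25 had a median-based difference under 0.5 in banded SKM, against 5 in banded LV, 3 in sham LV and 7 in sham SKM. Without libraries 1 and 2 of banded SKM at 4 months, an alternative chosen after seeing the data and for the high values of members in both libraries, 84 members remained above 0 in banded SKM with a median of 0.64, and among the first 28 it was 21. All remaining 4-month libraries then lay above all 1-month libraries for 47 members, against 9.84% of genes. With the rule run again on those 34 libraries, 67 of the 100 members were kept, 16 of them from the first 28.

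**Figure D3:**
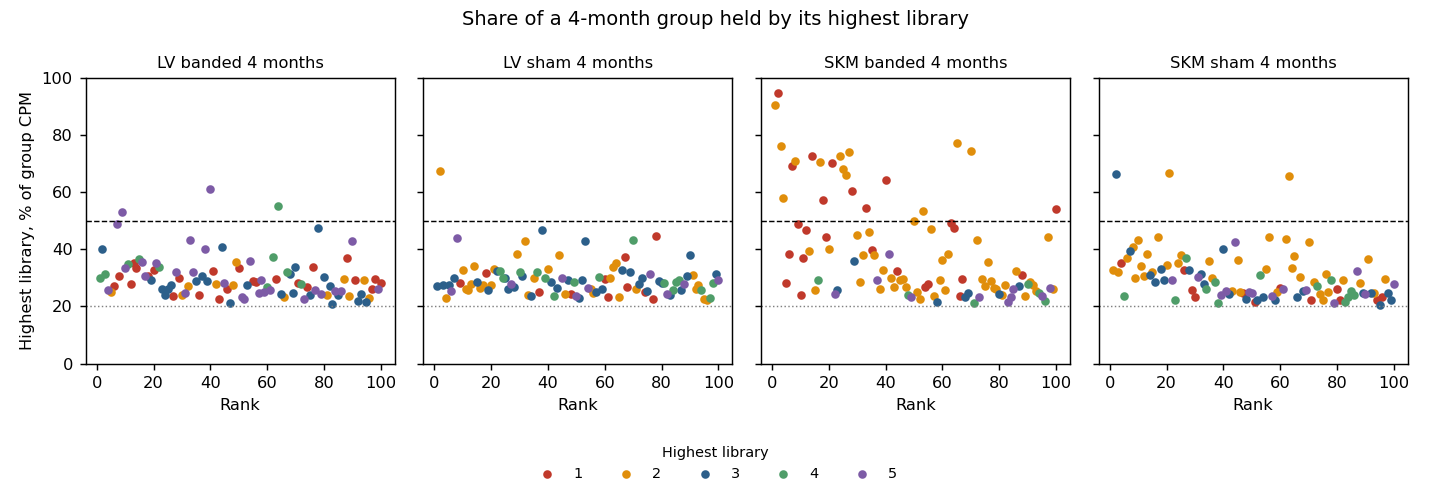
Percent of a 4-month group's summed CPM found in its highest library (vertical) for each member by rank (horizontal), in the 4 groups of 5 libraries at 4 months, with the colour giving that library's number. The dotted line at 20% is an even share and the dashed line marks 50%, which 22 members exceed in banded SKM, 3 in banded LV, 3 in sham SKM and 1 in sham LV. Over all 8072 genes, 0.619% exceed 50% in library 1 of banded SKM at 4 months and 0.396% in library 2.

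In each of the 8 groups the first 28 members varied more between libraries than the other 72. The median coefficient of variation of the first 28 members was 110% in banded SKM at 4 months, and it was 29.0% for the other 72 members and 17.5% for all 8072 genes. In the remaining groups it ran from 31.3% to 54.4% for the first 28 members, from 19.7% to 32.2% for the other 72 and from 14.5% to 22.5% for all genes. After removal of group means, the mean correlation between pairs of the first 28 members over the 18 libraries of a tissue was 0.23 in LV and 0.31 in SKM. For all members it was 0.10 and 0.13, and for all genes 0.10 and 0.12. These correlations share their libraries and their depth and are a description only.

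The same measure was then taken between libraries that had no part in the choice for their tissue and treatment, an alternative added after seeing the data. A 4-month and a 1-month library of the same tissue and treatment were left out together. By pair, 99 or 100 genes were chosen by the rule from the other 34 libraries, and the difference between the 2 left-out libraries was taken. There are 80 such pairs, which share libraries and are given as a description, and the labels do not say whether LV and SKM libraries of the same number share an animal. The median difference of the chosen genes was above 0 in all 80 pairs and above the median of all genes over the floor in all 80. It ran from 0.88 to 1.72 on the log2 scale over 25 pairs of banded LV, from 0.88 to 2.15 over 15 pairs of sham LV, from 0.18 to 1.06 over 25 pairs of banded SKM and from 0.65 to 1.46 over 15 pairs of sham SKM. The median of all genes ran from -0.41 to 0.25 over the 80 pairs.

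The lowest values came from banded SKM. Pairs with library 4 of 4 months gave medians from 0.18 to 0.70, with 58 to 80 of 99 genes above 0. Pairs with library 3 gave 0.30 to 0.69, with 60 to 86 of 99 above 0. For the first 28 genes chosen, the medians ran from -0.14 to 1.07 with library 4 and from -0.02 to 0.79 with library 3. With library 1, 2 or 5 of banded SKM at 4 months they ran from 0.97 to 2.22. With 1 library left out alone, where the libraries on the other side of the difference had chosen the genes, the medians over 36 libraries ran from 0.51 to 1.89.

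**Figure D4:**
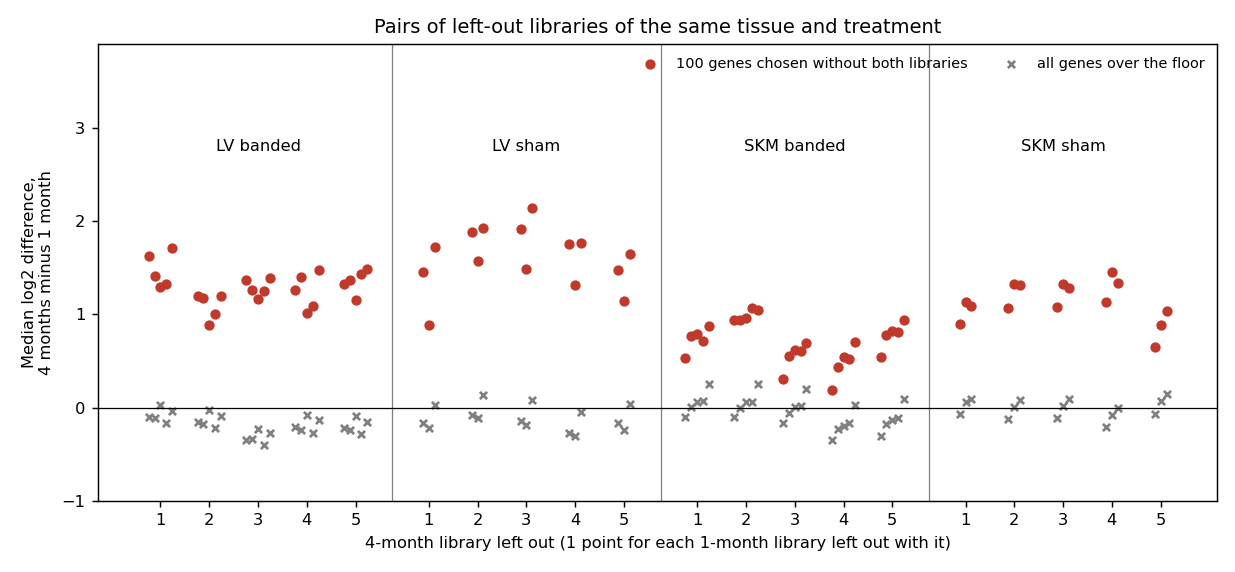
Median log2 difference of 4 months minus 1 month (vertical) between 2 left-out libraries, for the 99 or 100 genes chosen by the rule without both (red points) and for all genes over the floor (grey crosses), by the number of the 4-month library in each tissue and treatment (horizontal). All 80 red points lie above 0, and those of libraries 3 and 4 of banded SKM reach down to 0.30 and 0.18.

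Banding was tested next, since the rule did not compare banded with sham animals, although it used the same libraries. With edgeR's quasi-likelihood test over all genes, 0 members were called at a Benjamini-Hochberg adjusted p under 0.05 in LV at 1 month, LV at 4 months, SKM at 1 month or SKM at 4 months, and 0% of all genes were called in each. The smallest adjusted p of a member with edgeR was 0.398, 0.213, 0.278 and 0.293 in that order. The members' median log2 fold change of banded over sham was 0.01 in LV at 1 month, -0.12 in LV at 4 months, 0.04 in SKM at 1 month and -0.04 in SKM at 4 months. Over all genes these medians were -0.01, -0.02, 0.02 and 0.02.

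DESeq2 called 0 members in the first 3 of these comparisons and 2 in SKM at 4 months. Counts at an unadjusted p under 0.05 with edgeR are given beside the share of all genes. In LV at 1 month 5 members were higher and 5 lower in banded animals, against 3.24% and 5.46% of genes. In LV at 4 months 3 were higher and 6 lower, against 5.28% and 4.88%. In SKM at 1 month 2 were higher and 2 lower, against 5.69% and 8.39%. In SKM at 4 months 6 were higher and 12 lower, against 3.2% and 4.69% of genes, and 8 of the 12 lower ones are among the first 28 members. Of those 28, 21 had a fold change below 0 in SKM at 4 months, with a median of -0.71. In LV at 4 months 14 of the 28 did, with a median of -0.04. In SKM at 1 month 13 did, with a median of 0.19, and in LV at 1 month 8 did, with a median of 0.37. Over all genes tested, the fold change was above 0 in 53.8% in SKM and 47.6% in LV at 4 months. At 1 month it was above 0 in 52.4% in SKM and 48.6% in LV. The 28 were taken by the rule's value and correlate within groups, with a mean of 0.31 in SKM, so nothing is read from their counts. Without libraries 1 and 2 of banded SKM at 4 months, edgeR called 3 members lower at an adjusted p under 0.05, those ranked 14, 17 and 26, against 0.29% of genes. These 2 libraries were picked for their high values of members, so leaving them out lowers the banded mean of such members by construction, and nothing is read from these calls.

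ENSFCAG00000022803, ranked 63, had the smallest p of the members lower in banded animals. In SKM at 4 months it had 36.4, 12.4, 9.62, 5.33 and 9.82 CPM in banded animals, against 20.1, 259, 31.2, 62.8 and 20.5 CPM in sham animals. Library 1 was the high one in banded animals and library 2 in sham animals, and the groups overlapped. On the log2 scale, banded over sham was -2.46 (SE 0.656, adjusted p 0.293 with edgeR), and without sham library 2 it was -1.27 (adjusted p 0.862). DESeq2 gave -2.48 with an adjusted p of 0.0458 for this gene. The same tool called 1 further member, ranked 11, at -1.59 (adjusted p 0.031), and called 0.242% of the 19405 genes it tested lower. At 1 month in SKM ENSFCAG00000022803 had 18.04, 8.77, 8.41, 4.94 and 6.14 CPM in banded animals, against 3.11, 3.83 and 1.87 CPM in sham animals. All banded libraries lay above all sham libraries there. With edgeR, banded over sham there was 1.52 on the log2 scale (SE 0.807, adjusted p 0.403).

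In LV the same gene had 169.9, 48.1, 42.9, 144 and 166 CPM in banded and 65.8, 158, 121, 31.3 and 91.3 CPM in sham animals at 4 months. At 1 month in LV it had 15.4, 19.04, 57.7, 29.8 and 20.7 CPM in banded animals, against 13.7, 9.88 and 8.57 CPM in sham animals, again with all banded libraries above all sham libraries. The log2 fold changes were 0.29 at 4 months (SE 0.44, adjusted p 0.892) and 1.31 at 1 month (SE 0.546, adjusted p 0.499), both with edgeR.

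Few members had banded and sham libraries apart. In LV at 1 month all banded libraries lay above all sham libraries for 8 members, against 3.46% of the 8072 genes, and below them for 0, against 1.6%. In LV at 4 months 1 member, ranked 95, was below, against 0.669%, and 0 were above, against 0.483%. With edgeR, banded over sham for it was -0.46 on the log2 scale (SE 0.132, adjusted p 0.213), the smallest adjusted p of any member in that comparison. In SKM at 1 month 6 members were above and 1 below, against 4.47% and 1.73%. In SKM at 4 months 1 member, ranked 68, was above, against 0.743%, and 0 were below, against 0.434%. Banded over sham for it was 0.70 on the log2 scale in SKM at 4 months (SE 0.254, adjusted p 0.521 with edgeR) and 0.70 at 1 month (SE 0.307, adjusted p 0.33).

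One sham library moved the LV comparison at 1 month. Without library 2 of sham LV at 1 month, edgeR called 5 members, with those ranked 61, 79 and 81 higher and those ranked 82 and 96 lower in banded animals, against 2.15% and 1.87% of all genes. That library held over 50% of the summed CPM of its 3-library group for 20 members, and for 13.2% of all 8072 genes. Its part in the calls beyond that removal was not tested.

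**Figure D5:**
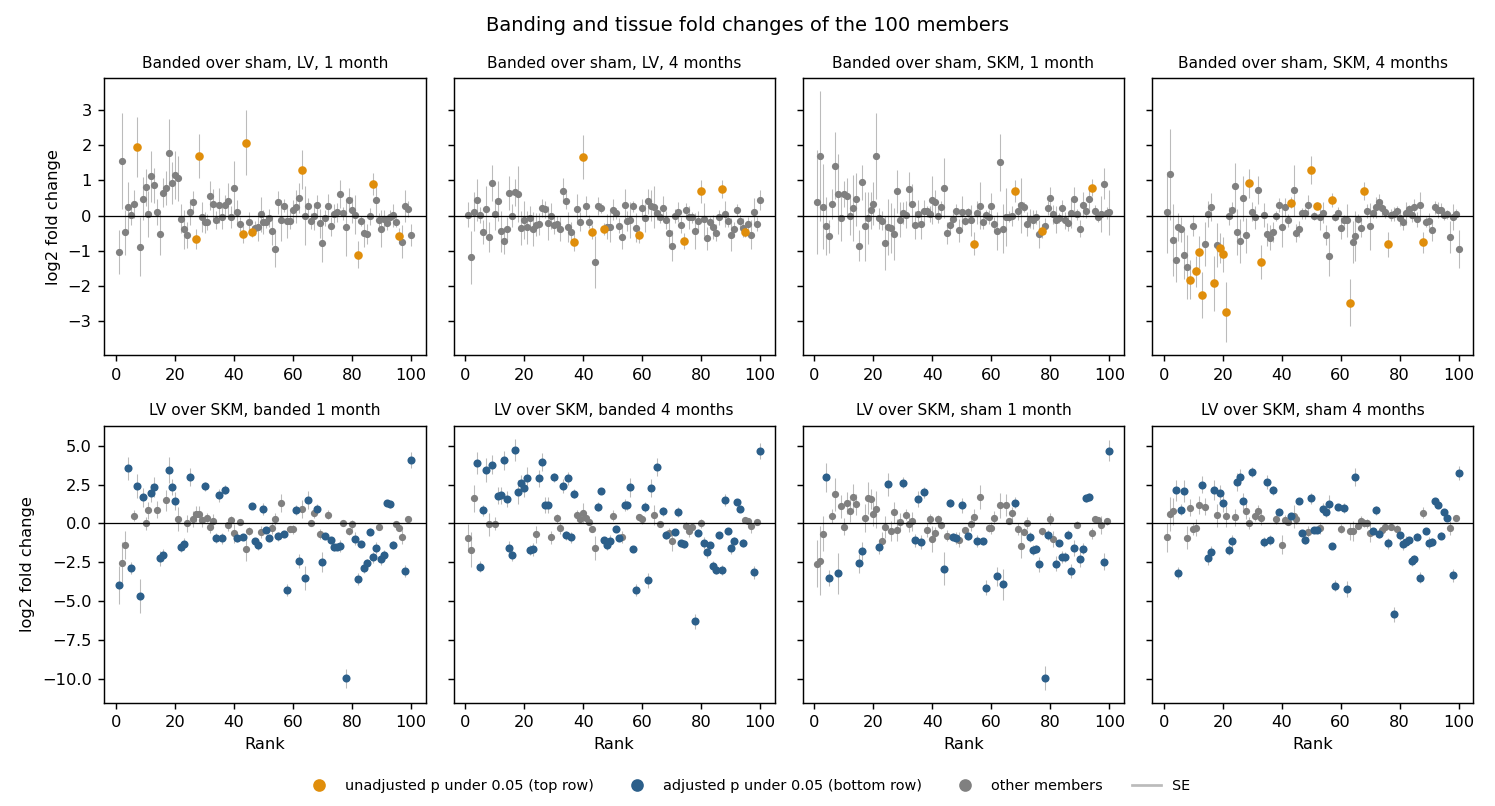
Log2 fold changes (vertical) with SE (grey bars) of the 100 members by rank (horizontal) in the 4 comparisons of banded over sham (top) and the 4 of LV over SKM (bottom). Orange points have an unadjusted p under 0.05 and blue points an adjusted p under 0.05, and the point near -10 in LV over SKM at 1 month is ENSFCAG00000043861.

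Between the tissues, members were called in both directions. LV was compared with SKM in each of the 4 groups of treatment and time in a fit of all 36 libraries. The rule did not compare the tissues, but it used the floor of 5 CPM in each tissue and the differences between times within each tissue. The shares of genes given here are over all 14579 genes tested, which include genes under that floor. Members had to pass the floor in both tissues, so the sets are unlike and nothing is read from the members' counts beside these shares. In banded animals at 4 months edgeR called 35 members higher and 33 lower in LV, against 35.8% and 32% of genes. In banded animals at 1 month it called 20 higher and 39 lower, against 28.3% and 25%. In sham animals at 4 months the counts were 29 higher and 31 lower, against 34.1% and 31.2%, and in sham animals at 1 month 11 higher and 32 lower, against 23.3% and 21.2%. In all 4 groups, 9 members were called higher in LV and 23 lower, against 16.1% of genes each way. A total of 17 members were called in no group, and 4 were called in both directions. The matching shares of all genes were not taken, so nothing is read from the 17 and the 4.

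Fewer members were called higher in LV at 1 month than at 4 months. As the choice used the differences between times, this shift is given as a description, with no test. In sham animals 19 members were called higher in LV at 4 months but not at 1 month, and in banded animals 17. Over all genes tested, the share called higher in LV was also larger at 4 months. It was 34.1% at 4 months and 23.3% at 1 month in sham animals, and 35.8% and 28.3% in banded animals. The share of all genes called higher at 4 months but not at 1 month was not taken.

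The average of the 4 LV over SKM fold changes ran from -7.98 for ENSFCAG00000043861 to 4.16 for the member ranked 100. For ENSFCAG00000043861 it was -6.27 in banded animals at 4 months (SE 0.492), -9.93 in banded at 1 month (SE 0.605), -5.82 in sham at 4 months (SE 0.481) and -9.91 in sham at 1 month (SE 0.776), with adjusted p values from 2.87e-15 to 3.43e-12 with edgeR. Every SKM library of this gene stood above every LV library. The member ranked 100 went the other way, with 474, 192, 207, 357 and 446 CPM in banded LV at 4 months, against 22.6, 5.43, 2.97, 1.27 and 9.39 CPM in banded SKM at 4 months. LV over SKM in that group was 4.66 on the log2 scale (SE 0.509, adjusted p 1.53e-09 with edgeR), and the tissues did not overlap.

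ENSFCAG00000011830 was lower in LV than in SKM in all 4 groups, at -1.59 in banded animals at 4 months (SE 0.385, adjusted p 0.000548), -2.29 in banded at 1 month (SE 0.394, adjusted p 1.12e-05), -1.23 in sham at 4 months (SE 0.381, adjusted p 0.00563) and -2.31 in sham at 1 month (SE 0.509, adjusted p 0.000404), all with edgeR. ENSFCAG00000040871 was called lower in LV only in banded animals at 1 month, at -3.95 (SE 1.24, adjusted p 0.00784), and without library 1 of banded SKM at 1 month it was -2.004 (adjusted p 0.18). Its tissue difference in banded animals at 4 months was -0.94 (SE 0.906, adjusted p 0.367), and 2.16 without library 2 of banded SKM at 4 months (adjusted p 0.0162). With LV and SKM libraries of the same group and number as a block it was 1.60 with all libraries kept (adjusted p 0.132). ENSFCAG00000022803 was called higher in LV in banded animals at 4 months, at 2.28 (SE 0.591, adjusted p 0.0011 with edgeR). In sham animals at 1 month it was not called in the fit of all 36 libraries and was called at 1.13 (adjusted p 0.0273) with only the groups compared.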

How the data were processed

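RNA was sequenced from 18 LV and 18 SKM libraries made with a stranded mRNA kit from total RNA, per the labels' protocols. The authors deposited whole-number counts per gene, not normalized, and the submitters' processing notes list HISAT2 2.1.0, HTSeq 0.11.2 and DESeq2 1.22.2. The genome build is not given in the sources used here. The authors also deposited 8 tables of comparisons with a mean normalized count (a signal), a log2 fold change, a test statistic (a score) and p-values. No value from these tables is printed here. The 5 lines per file for reads not assigned to a gene (23.7% to 53.9% of the counts in a file) were left out.

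Members were chosen by the rule given at the start of the text, and the members and the lists were chosen with earlier results of these data known. Identifiers printed were taken by rule as the member with the highest value of the rule, the one with the highest mean CPM, the one lower in banded animals with the smallest p, and the one with the most negative LV over SKM fold change. Members with values in the text beyond these were chosen after their values were seen. Tests used edgeR 4.0.16 (quasi-likelihood, TMM, filterByExpr) in R 4.3.3, fitted to all 18 libraries of a tissue, or to all 36 for LV over SKM, two-sided, with Benjamini-Hochberg adjustment over all genes tested. The fit of 4 months over 1 month is not reported, since that contrast chose the members. The tests were tried on simulated data with known fold changes. Alternatives were DESeq2 1.42.0, relative log expression (RLE) scaling, no low-count filter, a fit without the groups outside a comparison, a block for the replicate number and removal of each library, and for the choice of members other pseudocounts, floors, scaling and group medians.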

Additional observations from a re-analysis of the deposited data

Results flagged for a closer look

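For 7 of the members with values in the text, 1 library stood farther from the rest of its group than Dixon's test allows at the 95% level. Chance gives this in about 1 in 20 groups only where values are normally distributed, and the test was run on CPM without a log scale. ENSFCAG00000040871 was high in library 2 of banded SKM at 4 months (249 CPM), in library 1 of banded SKM at 1 month (17.7 CPM) and in library 1 of banded LV at 1 month (0.969 CPM). The member ranked 3 was high in the same 2 SKM libraries, at 1006 CPM at 4 months and 133 CPM at 1 month. The member ranked 65 was high in library 2 of banded SKM at 4 months (117 CPM) and low in library 3 of banded LV at 1 month (44.4 CPM).

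The member ranked 18 was high in library 1 of banded SKM at 4 months (145 CPM) and in library 3 of banded LV at 1 month (518 CPM). ENSFCAG00000022803 was high in library 1 of banded SKM at 4 months (36.4 CPM) and in library 2 of sham SKM at 4 months (259 CPM). The member ranked 5 was high in library 3 of banded LV at 1 month (21.4 CPM) and low in library 2 of banded SKM at 1 month (30.2 CPM). ENSFCAG00000043861 was high in library 3 of banded LV at 4 months (21.9 CPM).

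Over all 100 members and the 6 groups of 5 libraries, 86 of 600 sets of values, or 14.3%, had such a library, 80 of them high and 6 low. The share over all genes was not taken, and the rule used group means that 1 high library raises. Nothing is therefore read from the 14.3%. The libraries met most often were library 2 of banded SKM at 4 months with 20 members, library 3 of banded LV at 1 month with 18 and library 1 of banded SKM at 4 months with 10.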

How the results depend on the processing

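The choice of members kept 91 to 98 of the 100 with a pseudocount of 1 or 0.1 or with TMM scaling, 76 and 79 with a floor of 1 or 10 CPM, 63 with group medians in place of means, and 86 to 98 without 1 library. Banding calls among members stayed at 0 in all 4 comparisons with RLE, without the low-count filter, with only the groups compared and with the replicate block. DESeq2 gave 2 in SKM at 4 months and 0 in the other 3. Without libraries 1 and 2 of banded SKM at 4 months, chosen after seeing the data for their high values of members, there were 3. Without 1 library, banding calls ran from 0 to 5 in LV at 1 month, 0 to 0 in LV at 4 months, 0 to 0 in SKM at 1 month and 0 to 1 in SKM at 4 months. The 1 call in SKM at 4 months, lower in banded animals, came without library 1 of banded SKM, where 0.141% of genes were called lower. Tissue calls without 1 library ran from 62 to 71 in banded animals at 4 months, 54 to 58 in banded at 1 month, 54 to 59 in sham at 4 months and 34 to 49 in sham at 1 month. The shares of all genes called for tissue without 1 library are not given here, so nothing is read from these tissue counts. The cause of the changes between alternatives was not tested.

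Of 244 values of the 4 members printed by identifier under an alternative, 236 kept their direction and their side of the threshold, and 5 turned round, all in LV over SKM fold changes that were not called. Of the other 3, 2 gained a call, ENSFCAG00000022803 in SKM at 4 months with DESeq2 (banded over sham, adjusted p 0.0458) and in LV over SKM of sham animals at 1 month with only the groups compared (adjusted p 0.0273), and 1 lost it, ENSFCAG00000040871 in banded animals at 1 month without library 1 of banded SKM (adjusted p 0.18). For ENSFCAG00000040871 in banded animals at 4 months the value was 1.60 with the replicate block (adjusted p 0.132), 2.16 without library 2 of banded SKM (adjusted p 0.0162, with -1.25 as the lowest value without 1 library) and 2.83 without libraries 1 and 2 (adjusted p 0.007). For ENSFCAG00000022803 in sham animals at 4 months it was 0.14 with the replicate block (adjusted p 0.836) and 0.67 without library 2 of sham SKM (adjusted p 0.239, with -0.76 as the lowest value without 1 library). Library numbers are shared by groups and tissues, and the labels do not say that a number marks an animal. Residuals of LV and SKM libraries of the same group and number correlated above 0.1 in 14 of 18 pairs (median 0.14), against 22 of 48 pairs of the same number in different groups of a tissue (median 0.06), and 22 of 36 libraries correlated best with their own number in the other tissue. Pairs were to be used only if every correlation passed 0.1, so the unpaired fit was kept. With LV and SKM libraries of the same group and number as a replicate block, LV over SKM was called for 67 members in banded animals at 4 months, 59 in banded at 1 month, 61 in sham at 4 months and 47 in sham at 1 month, against 68, 59, 60 and 43 without it. Without the block 67.8%, 53.3%, 65.3% and 44.6% of all genes tested were called in that order, so nothing is read from these counts. With 3 sham libraries at 1 month per tissue, the comparisons that use them rest on the fewest libraries, and members under 1 CPM in a group rest on few counts.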
